A study of Mus musculus with 9 samples.

Results

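Angiopoietin-like genes (Angptl) and plasma triglyceride lipases were read in liver RNA of 9 mice, in 3 groups of 3. The 6 genes were Angptl8, Angptl4, Angptl6, Lpl, Lipc and Lipg, matched by symbol among the 56748 genes of the deposited count table, of which 23877 had a count in any library. They were selected on measured values, namely a lower level of Angptl8 with indirubin than with dextran sulfate sodium (DSS) alone, so the values of these 6 genes in the comparison between those groups are a description and carry no test. Bulk RNA sequencing was done on livers of C57BL/6J mice (C57BL/6 in the sample labels), 7 to 8 weeks old when obtained. The Control mice were labelled as given water. The daily gavage of 200 µL comes from the methods of the paper, which give it for a control group named after the DSS cycles. The DSS mice received 1.8% DSS in the drinking water in 3 cycles, each of 1 week followed by 1 week of recovery, which induces chronic colitis, with the same gavage of water. The Indirubin mice received the same DSS cycles and indirubin, a poorly soluble plant pigment, at 1 g/kg/day in the gavage. Each Indirubin mouse had thus also received DSS, and no group received indirubin alone. The labels of the Control mice name no DSS, whereas the design text of the series describes the DSS cycles before the split into groups. The labels give neither the sex of the mice nor their feeding state when the livers were taken.

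Triglycerides travel in blood inside chylomicrons and very-low-density lipoproteins (VLDL), and lipoprotein lipase (Lpl), held on the wall of capillaries, releases their fatty acids to muscle, heart and fat. Several angiopoietin-like proteins are secreted brakes on this enzyme, among them Angptl8, made in liver and fat and raised by feeding, and Angptl4, raised by fasting. Hepatic lipase (Lipc) is made by hepatocytes and acts on the smaller remnant particles and on high-density lipoprotein, endothelial lipase (Lipg) acts mainly on phospholipids of high-density lipoprotein, and Angptl6 is a secreted liver protein studied for its effects on vessels and energy use.

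The library totals lay between 6514863 and 7944684 counts, of which mitochondrial transcripts took 71.6% to 91.3%, so that 569044 to 2132208 counts of nuclear genes remained. The 10 hepatocyte markers, Alb and Ttr among them, were detected in all 9 libraries, with summed levels of 10600 to 17700 normalized CPM (counts divided by a library size that the TMM method had scaled) in Control, 8640 to 16600 with DSS and 6610 to 9860 with indirubin. That sum was lower in each Indirubin library than in each Control library, while the DSS range overlapped both, but Alb alone made up 60.8% to 79.1% of its counts. Of the 10 markers taken singly, Apoa1, Ttr and Serpinc1 lay lower with indirubin than in Control without overlap and the other 7 overlapped. Of all 8059 genes tested there, 9.32% lay lower and 12.2% higher without overlap. Against DSS, Ttr, Asgr1 and Serpinc1 lay lower, Tdo2 higher and the other 6 overlapped, beside 5.92% lower and 10.5% higher of 9117 genes. Tat, an enzyme of tyrosine breakdown, stood at 55.5, 276 and 266 CPM in Indirubin-1, Indirubin-2 and Indirubin-3, beside 100 to 114 CPM in Control and 68.3 to 175 with DSS. Tdo2, an enzyme of tryptophan breakdown, stood at 51.6, 114 and 105 CPM in these libraries, beside 49 to 64.1 CPM in Control and 23.9 to 37.7 with DSS. A level per hepatocyte marker count is therefore mostly a level per Alb count. The part of the sum in the lower levels of liver genes with indirubin was not tested beyond the scaling per hepatocyte marker given for the genes. Indirubin-2 and Indirubin-3 stood apart: their 12 pancreatic acinar markers summed to 1400 and 1380 CPM, against 0 to 19.7 CPM in the other 7 libraries, and Indirubin-3 alone held striated muscle transcripts, 193 CPM against 0 to 2.94 CPM elsewhere. In bulk tissue, fewer cells of a type and less RNA per cell cannot be told apart.

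**Figure D1:**
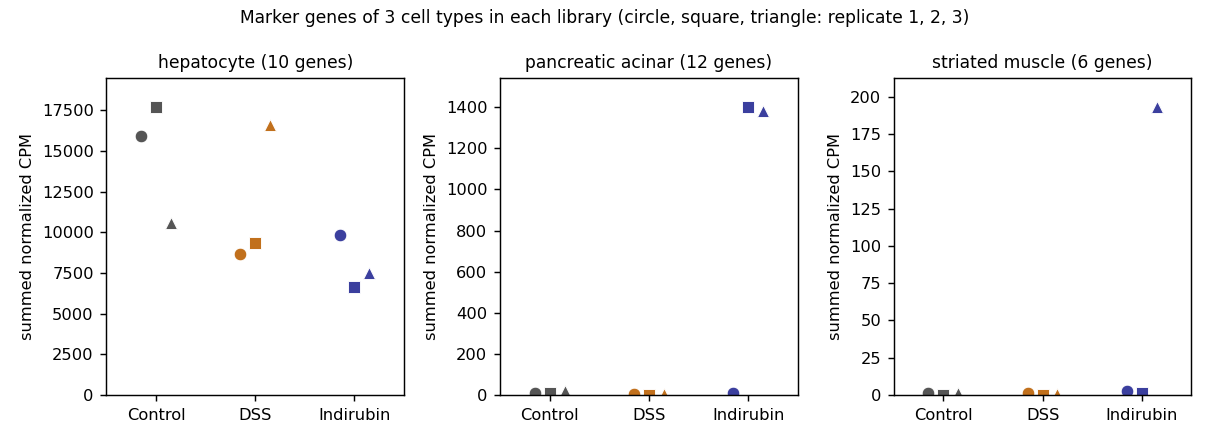
Summed normalized CPM of 10 hepatocyte, 12 pancreatic acinar and 6 striated muscle marker genes (vertical axes, linear from 0) in each of 9 libraries by group, with a circle, square and triangle for replicates 1, 2 and 3. Acinar transcripts reached 1400 and 1380 CPM in Indirubin-2 and Indirubin-3, and muscle transcripts 193 CPM in Indirubin-3 alone.

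On the mouse build of the count table, GRCm39, Angptl8 (ENSMUSG00000047822) lies on chromosome 9 from 21746806 to 21748643 on the plus strand, inside the span of Dock6, which runs on the minus strand. Angptl6 (ENSMUSG00000038742) lies on chromosome 9 from 20785104 to 20791023 on the minus strand, where its end overlaps that of Shfl on the plus strand. Lipc (ENSMUSG00000032207) lies on chromosome 9 from 70705410 to 70859508 on the minus strand, and the 3 small genes annotated within it had at most 1 count in any library. Whether reads were counted by strand is not given in the sources used here. Dock6 had 0 to 36 counts and Shfl 0 to 39 in the 9 libraries, and reads of overlapping genes could not be told apart where strand was not used.

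Angptl8, Lipc and Angptl6 were the 3 genes of the 6 whose level was lower in each Indirubin library than in each DSS library, as in 5.92% of all 9117 genes tested there. The bases before their start sites are shown because only these 3 had a promoter sequence, and not because of their level. RefSeq promoter sequences of the older build GRCm38.p6 matched 3 of the 6 genes by symbol, with 1 start site each for Angptl8 and Angptl6 and an upstream and a downstream one for Lipc; Angptl4, Lpl and Lipg had no match. Each line gives the 250 bases before a start site in the direction of the gene, from chr9:21835260-21835509 (plus strand) for Angptl8, chr9:20879711-20879960 (minus strand) for Angptl6, and chr9:70952222-70952471 and chr9:70934809-70935058 (both minus strand) for Lipc. Capitals mark a match, on either strand, to 1 of 4 motifs: GCGTG, the core of the dioxin-responsive element that the aryl hydrocarbon receptor binds, CACGTG, an E-box, AGGTCA, a half-site of nuclear receptors, or GTTAAT, a half-site of HNF1.
Angptl8: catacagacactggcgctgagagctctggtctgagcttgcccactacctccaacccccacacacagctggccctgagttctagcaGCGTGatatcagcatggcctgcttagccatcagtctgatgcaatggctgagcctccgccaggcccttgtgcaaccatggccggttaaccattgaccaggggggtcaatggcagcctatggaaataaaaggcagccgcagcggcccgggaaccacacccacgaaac
Angptl6: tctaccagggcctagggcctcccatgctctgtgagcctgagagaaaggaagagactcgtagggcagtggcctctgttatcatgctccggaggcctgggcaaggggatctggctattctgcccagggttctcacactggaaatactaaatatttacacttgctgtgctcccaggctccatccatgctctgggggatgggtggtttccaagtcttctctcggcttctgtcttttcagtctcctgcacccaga
Lipc, upstream start: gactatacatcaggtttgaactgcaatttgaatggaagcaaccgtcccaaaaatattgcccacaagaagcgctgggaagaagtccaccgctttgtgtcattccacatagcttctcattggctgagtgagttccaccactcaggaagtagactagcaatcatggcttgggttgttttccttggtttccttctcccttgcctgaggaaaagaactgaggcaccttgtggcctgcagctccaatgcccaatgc
Lipc, downstream start: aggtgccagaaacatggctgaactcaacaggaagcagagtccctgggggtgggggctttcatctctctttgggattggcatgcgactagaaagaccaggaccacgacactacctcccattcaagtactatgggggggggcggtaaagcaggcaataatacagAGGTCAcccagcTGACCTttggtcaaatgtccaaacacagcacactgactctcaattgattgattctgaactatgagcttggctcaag
The Angptl8 window held 1 GCGTG, which begins 165 bases before the start. The downstream Lipc window held AGGTCA on the printed strand 88 bases before the start and on the other strand 76 bases before it, and the other 2 windows held none of the 4 motifs. Among 32851 promoters of the same length, 28.2% held GCGTG, 14% AGGTCA, 6.02% CACGTG and 6.43% GTTAAT. The motifs did not overlap one another in these windows, and a match is a description of the letters, not a measured site.

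Angptl8 was the gene with the widest range. In Control livers it had 33.5, 28.7 and 33.1 normalized CPM (172, 163 and 136 counts), in DSS livers 207, 100 and 58.4 CPM (1744, 567 and 639 counts), and in Indirubin livers 3.86, 16 and 2.51 CPM (21, 195 and 29 counts). All 3 DSS livers lay above all 3 Control livers, and all 3 Indirubin livers lay below both groups, so no groups overlapped. The mean level was 122 ± 76.4 CPM with DSS, 31.8 ± 2.65 CPM in Control and 7.45 ± 7.42 CPM with indirubin (SD, n = 3).

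The log2 fold change of Angptl8 was -4.02 (standard error 0.74) for Indirubin over DSS, 1.99 (0.43) for DSS over Control and -2.04 (0.60) for Indirubin over Control. These 3 comparisons share libraries pairwise, and the DSS level enters the rule that chose the gene, so no p is given for Angptl8 in any of them. DSS-1 was the highest library, and without it the DSS over Control value was 1.35. Indirubin-2 was the highest of its group, and without it the values were -5.27 against DSS and -3.32 against Control. With library size alone as the scaling, the value was 2.60 for DSS over Control and -0.85 for Indirubin over Control. With Indirubin-1 as the only Indirubin library, which leaves out both libraries with pancreatic transcripts, the values were -4.97 against DSS and -3.05 against Control, an alternative chosen after seeing the data. Per 1000 counts of the 10 hepatocyte markers of the same library, Angptl8 stood at 2.1, 1.63 and 3.11 counts in Control, 23.9, 10.8 and 3.51 with DSS and 0.391, 2.42 and 0.334 with indirubin. On that scale Indirubin-2 lay within the Control range, while the DSS livers stayed above all others. Dock6, which overlaps Angptl8, had 35, 36 and 16 counts in Control, 0, 7 and 26 with DSS and 8, 33 and 34 with indirubin. DSS-1, the library with most Angptl8, had no Dock6 count.

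**Figure D2:**
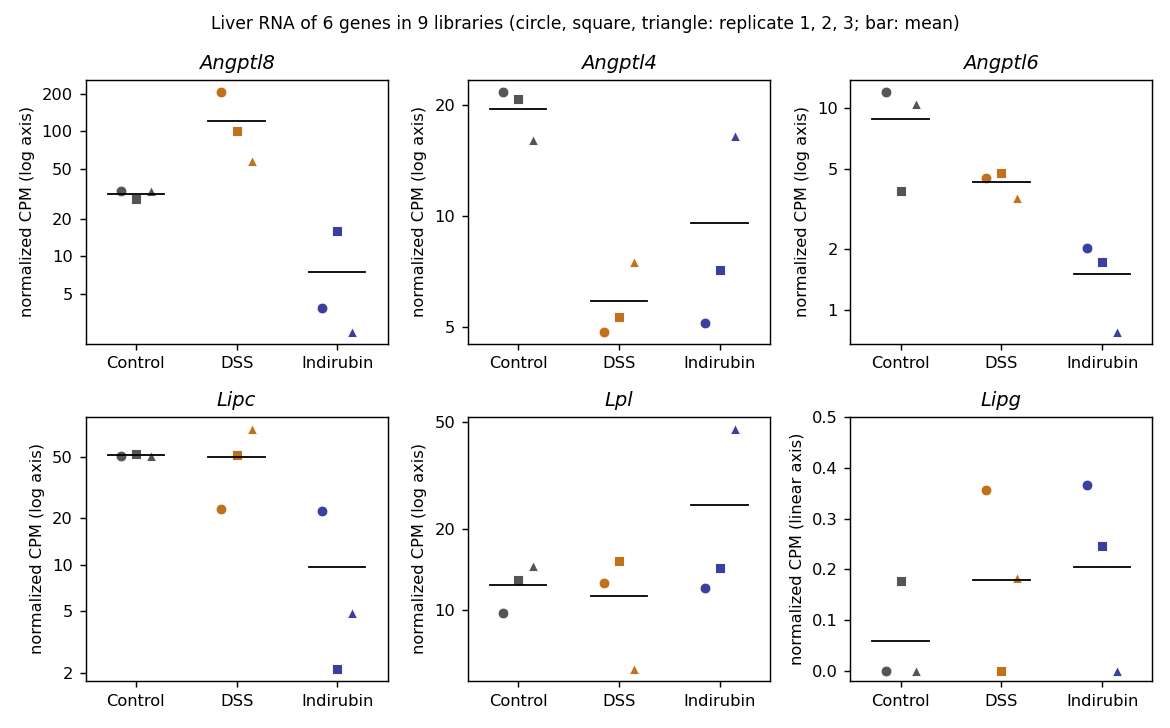
Normalized CPM of Angptl8, Angptl4, Angptl6, Lipc and Lpl (log axes) and of Lipg (linear axis) in each of 9 libraries by group, with symbols for replicates 1, 2 and 3 and a bar at the arithmetic mean of 3 libraries. The Angptl8 groups do not overlap, with 28.7 to 33.5 CPM in Control, 58.4 to 207 with DSS and 2.51 to 16 with indirubin, and Lpl is high in Indirubin-3 alone, at 47.2 CPM.

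Ranked per length among the nuclear protein-coding genes detected in a library, Angptl8 stood at places 151, 196 and 126 in Control, 26, 61 and 127 with DSS and 1021, 311 and 1593 with indirubin. In DSS-1 it was thus among the most abundant transcripts of the liver, at place 26 of 10539 detected genes. The DSS-3 place, 127, was next to the best Control place, 126, although its CPM was higher than in any Control library.

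Over the 9 libraries, the genes named here from the 5 whose log2 CPM followed that of Angptl8 most closely, of 9708 compared, were Abcf1 (Pearson r = 0.971), Zfp687 (r = 0.943), Eif4a-ps4 (r = 0.912) and Gng11 (r = 0.91). The points share their libraries and hence their depth and scaling factors, and the r of a gene chosen for its group difference follows that difference. Abcf1, an ATP-binding protein of translation, had 45, 49 and 31 counts in Control, 104, 73 and 94 with DSS and 23, 89 and 42 with indirubin. Its counts spanned a far narrower range than those of Angptl8. Zfp687 had at most 18 counts in any library, and Eif4a-ps4 is a pseudogene whose counts may include reads of its parent gene.

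Angptl4, the fasting-induced inhibitor of Lpl, had the opposite order to Angptl8 between Control and DSS. The gene (ENSMUSG00000002289) spans 33992724 to 34000804 of chromosome 17 on the minus strand. It stood at 21.8, 20.8 and 16.1 CPM in Control (112, 118 and 66 counts), 4.86, 5.32 and 7.5 CPM with DSS (41, 30 and 82 counts) and 5.14, 7.13 and 16.5 CPM with indirubin (28, 87 and 191 counts). Each DSS liver lay below each Control liver, while Indirubin-1 and Indirubin-2 lay within the DSS range and Indirubin-3 within the Control range. The log2 fold change for DSS over Control was -1.69 (standard error 0.39), which missed the threshold of 0.05 at an adjusted p = 0.0798 (edgeR, unadjusted p = 0.000715). It passed by the DESeq2 Wald test (adjusted p = 0.0034) and with a filter of 10 counts in every library (0.0236 by edgeR). In counts simulated from the Indirubin and DSS libraries, 43 of 143 DESeq2 calls were false. With library size alone the Angptl4 value for DSS over Control was -0.98. Its adjusted p of 0.473 by edgeR was the highest of the alternatives. In this comparison 0.708% of 7482 tested genes passed that threshold and 8.54% lay lower without overlap, so a gene that separated downward was no rarity. Per 1000 hepatocyte marker counts the DSS livers, at 0.562, 0.57 and 0.451, still lay below the Control livers, at 1.37, 1.18 and 1.51.

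For Indirubin over DSS the Angptl4 value was 0.71 (standard error 0.54), and it rested on Indirubin-3, without which it was 0.06. For Indirubin over Control it was -0.99 (0.46, adjusted p = 0.369 by edgeR), and -1.63 without Indirubin-3, 0.05 when scaled by library size alone and -0.33 per hepatocyte marker count. On that last scale the Indirubin livers stood at 0.521, 1.08 and 2.2 per 1000 marker counts, so Indirubin-3 lay above every Control liver. That library, with 16.5 CPM of Angptl4, is the one with striated muscle transcripts, and their part in its level was not tested. Within a library, a ratio of counts per kb of gene length does not depend on the library's scaling. The ratio of Angptl8 to Angptl4 per kb was 6.29, 5.65 and 8.44 in Control, 174, 77.4 and 31.9 with DSS and 3.07, 9.18 and 0.622 with indirubin. All DSS ratios stood above all others, and Indirubin-2 was the one Indirubin library not below Control.

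**Figure D3:**
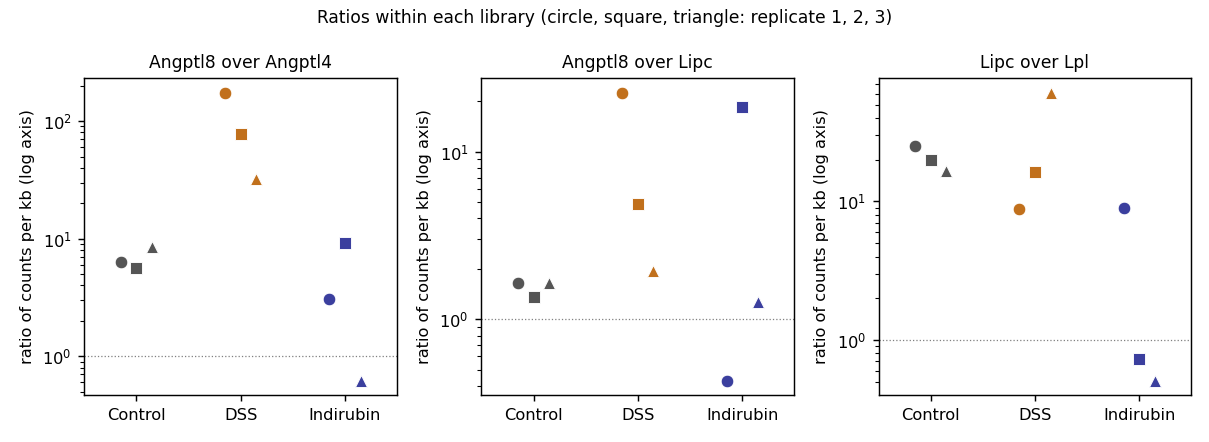
Ratios of counts per kb of gene length within each of 9 libraries (log axes) for Angptl8 over Angptl4, Angptl8 over Lipc and Lipc over Lpl, with symbols for replicates 1, 2 and 3 and a dotted line at equal levels. Angptl8 over Angptl4 is highest in the DSS livers (31.9 to 174), and Lipc over Lpl lies under 1 in Indirubin-2 (0.728) and Indirubin-3 (0.509).

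Angptl6 was low and was lower still with indirubin. It had 12.1, 3.88 and 10.5 CPM in Control (62, 22 and 43 counts), 4.5, 4.78 and 3.57 CPM with DSS (38, 27 and 39 counts) and 2.02, 1.72 and 0.778 CPM with indirubin (11, 21 and 9 counts). All 3 Indirubin livers lay below all other livers, and Control-2 lay within the DSS range. The log2 fold change was -1.51 (standard error 0.79) for Indirubin over DSS, -1.01 (0.56, adjusted p = 0.784 by edgeR) for DSS over Control and -2.54 (0.65, adjusted p = 0.118 by edgeR) for Indirubin over Control. The last of these passed without a filter on low counts (adjusted p = 0.0241), by DESeq2 (0.0129) and without Indirubin-1 (0.0477). Its adjusted p by edgeR ran up to 0.377 over the other alternatives, reached without Control-1. With Indirubin-1 as the only Indirubin library the value was -2.13, and no p is given for a group of a single library. The Indirubin over Control value shrank to -1.59 with library size alone (adjusted p = 0.2 by edgeR) and to -1.63 per hepatocyte marker count. That for DSS over Control was -0.35 with library size alone and -0.5 per hepatocyte marker count. Per 1000 hepatocyte marker counts Angptl6 stood at 0.22 to 0.984 in Control, 0.214 to 0.521 with DSS and 0.104 to 0.26 with indirubin, and all 3 groups overlapped.

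Lipc, hepatic lipase, was even in Control and spread widely in both other groups. It had 50.6, 52.3 and 50.2 CPM in Control (260, 297 and 206 counts), 22.9, 51 and 75.2 CPM with DSS (193, 288 and 823 counts) and 22.2, 2.13 and 4.92 CPM with indirubin (121, 26 and 57 counts). The Control livers were close together, whereas the DSS livers ran from below to above them. Indirubin-1 lay just under DSS-1, and Indirubin-2 and Indirubin-3 were far lower. The mean level was 51 ± 1.14 CPM in Control, 49.7 ± 26.2 with DSS and 9.76 ± 10.9 with indirubin (SD, n = 3).

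The log2 fold change of Lipc was -2.37 (standard error 0.75) for Indirubin over DSS, and it was -3.92 without Indirubin-1 and -1.16 with Indirubin-1 as the only Indirubin library. For DSS over Control it was -0.02 (0.37, adjusted p = 1 by edgeR), and its sign turned without DSS-1, at 0.32, and when scaled by library size alone, at 0.74. For Indirubin over Control it was -2.41 (0.67), with all 3 Indirubin livers below all 3 Control livers and an adjusted p = 0.14 by edgeR. That comparison had 0.236% of 8059 tested genes past the threshold and 9.32% lower without overlap. Lipc passed there without a filter (adjusted p = 0.000135), by DESeq2 (0.0182) and without Indirubin-1 (log2 fold change -3.97, adjusted p = 0.000325). Its adjusted p by edgeR ran up to 0.399 over the other alternatives, reached without Indirubin-3. With Indirubin-1 as the only Indirubin library the log2 fold change was -1.21, and no p is given for a group of a single library. The 2 livers with the least Lipc were the 2 with pancreatic acinar transcripts, whose part in its level was not tested. Per 1000 counts of hepatocyte markers, Lipc was 3.18, 2.96 and 4.72 in Control, 2.65, 5.48 and 4.52 with DSS and 2.25, 0.322 and 0.656 with indirubin, so the Indirubin livers also lay below all others on that scale.

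Lpl, whose product acts mainly outside the liver and which adult hepatocytes express weakly, was low in 8 of 9 libraries. The gene (ENSMUSG00000015568) spans 69333143 to 69360100 of chromosome 8 on the plus strand. It had 9.73, 12.9 and 14.6 CPM in Control (50, 73 and 60 counts), 12.6, 15.2 and 6.03 CPM with DSS (106, 86 and 66 counts) and 12.1, 14.3 and 47.2 CPM with indirubin (66, 174 and 546 counts). Apart from Indirubin-3, the Indirubin livers lay within the ranges of Control and DSS. Per 1000 hepatocyte marker counts Lpl was 0.611 to 1.37 in Control, 0.363 to 1.64 with DSS and 1.23, 2.16 and 6.28 with indirubin, so on that scale Indirubin-2 also lay above all Control and DSS livers, and the log2 difference of Indirubin over Control was 1.59. The log2 fold change was 1.13 (standard error 0.57) for Indirubin over DSS, -0.09 (0.45, adjusted p = 1) for DSS over Control and 1.02 (0.52, adjusted p = 0.417) for Indirubin over Control by edgeR. Without Indirubin-3 the first was 0.24 and the last 0.12, and the value for DSS over Control was 0.48 when scaled by library size alone and 0.23 without DSS-3. Library size alone moved Indirubin over Control to 2.08 (adjusted p = 0.0701 by edgeR). Indirubin-3 held 1409 counts of Acta1, 556 of Tnnt3, 152 of Mb and 103 of Ckm, genes of striated muscle, a tissue rich in Lpl, and none of Myh4. The part of muscle RNA in its Lpl count was not tested. The 7 adipocyte markers summed to at most 5.88 CPM, and Adipoq was at 0 throughout. Their sum was higher in each Indirubin library (1.64 to 5.88 CPM) than in each DSS library (0 to 0.823 CPM), and its part in the Lpl level was not tested. The markers of Kupffer cells ran from 64.3 to 168 CPM, of monocyte-derived macrophages from 22 to 47.6 CPM, of endothelial cells from 48.3 to 116 CPM, and of stellate cells and fibroblasts from 67.5 to 202 CPM in the 9 libraries. The ranges of the groups overlapped in these lists, except that endothelial markers were higher with indirubin (59.4 to 116 CPM) than with DSS (56.4 to 56.7 CPM) and stellate and fibroblast markers higher in Control (99.9 to 164 CPM) than with DSS (67.5 to 95.9 CPM).

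Within a library, Lipc exceeded Lpl per kb of gene length by 25.3, 19.8 and 16.7 times in Control and by 8.87, 16.3 and 60.8 times with DSS. With indirubin the ratio was 8.93, 0.728 and 0.509, so Lpl exceeded Lipc in Indirubin-2 and Indirubin-3. On the log2 scale the Indirubin minus Control difference of the ratio was -3.77, with all 3 Indirubin livers below all 3 Control livers (two-sided exact permutation test, p = 0.10, the smallest that 3 against 3 allows, adjusted p = 0.20 over 2 tests). Between DSS and Control it differed by 0.02 (exact permutation test, p = 1.00, adjusted p = 1.00). Lipg (ENSMUSG00000053846, chromosome 18, 75072393 to 75094334, minus strand), endothelial lipase, had 0 to 3 counts in every library, at or under the floor of 3 counts below which no level was read. It did not pass the count filter, and no fold or test is given for it.

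Compared per kb of gene length, the order of mean levels in Control was Angptl8 (36.7 ± 3.06 CPM per kb), Lipc (23.7 ± 0.529), Angptl6 (5.56 ± 2.74), Angptl4 (5.52 ± 0.862) and Lpl (1.18 ± 0.236), with Lipg at or under the floor. Angptl6 and Angptl4 did not differ beyond their spread, and the other neighbours did not overlap. With DSS the order was the same but the distances differed: Angptl8 stood at 141 ± 88.4 CPM per kb, Lipc at 23.1 ± 12.2, Angptl6 at 2.71 ± 0.404, Angptl4 at 1.66 ± 0.398 and Lpl at 1.08 ± 0.452, and of these neighbours Angptl4 and Lpl overlapped. With indirubin Angptl8 (8.61 ± 8.58) and Lipc (4.54 ± 5.06) still had the highest means, above Angptl4 (2.71 ± 1.71), Lpl (2.34 ± 1.88) and Angptl6 (0.952 ± 0.41), but every neighbour in that order overlapped. Angptl8 exceeded Lipc per length in each Control library, by 1.36 to 1.64 times, and in each DSS library, by 1.93 to 22.5 times. In the Indirubin libraries that ratio was 0.431, 18.6 and 1.26. Levels per kb, their order and the ratios between genes rest on the deposited gene lengths, such as 10478 bases for Lpl and 2150 for Lipc. Whether the transcripts in these livers have those lengths was not tested.

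**Figure D4:**
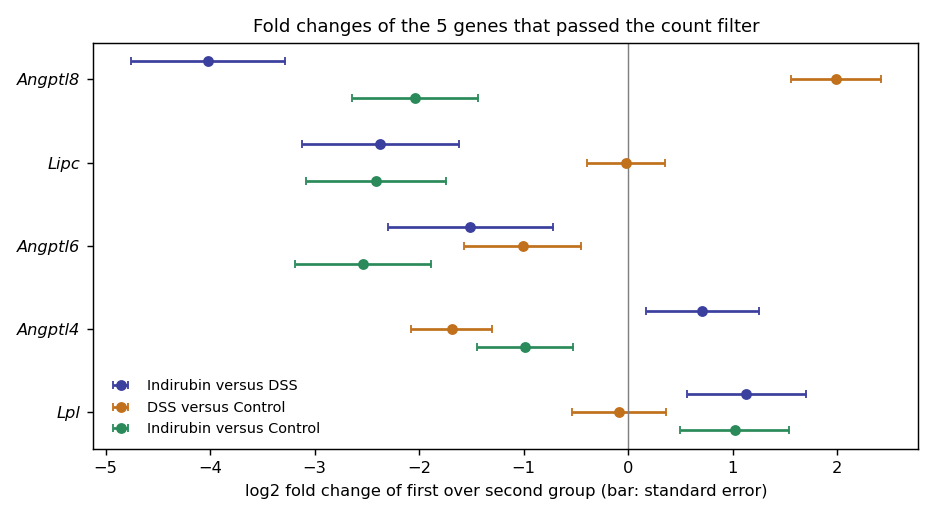
Log2 fold changes (horizontal axis) of the 5 genes that passed the count filter in each of 3 comparisons, with bars of 1 standard error from the edgeR fit. Angptl8 lies at 1.99 for DSS over Control and at -4.02 for Indirubin over DSS, while Lipc lies near 0 for the former and at -2.37 for the latter.

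Of the 6 genes, 5 passed the count filter in each comparison. For Indirubin over DSS, 3 of these lay lower without overlap and none higher, beside 5.92% of 9117 tested genes lower and 10.5% higher without overlap. The rule used that comparison, and nothing is read from the count. No gene of the 9117 passed an adjusted p under 0.05 by edgeR (0%), while unadjusted p-values under 0.05 were found for 406 genes with a higher and 294 with a lower level, and the DESeq2 Wald test called 80. For DSS over Control 1 of the 5 (Angptl8) lay higher and 1 (Angptl4) lower without overlap, beside 7.10% higher and 8.54% lower of all genes. For Indirubin over Control 3 lay lower and none higher, beside 9.32% lower and 12.2% higher. Of the 4 genes given a test in the latter 2 comparisons, none passed the adjusted threshold in either.

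The other genes of triglyceride handling were read in 6 lists of 79 genes. For Indirubin over DSS, 73 could be tested and none passed the adjusted threshold. With an unadjusted p under 0.05 there were 2 higher and 11 lower genes, beside 406 and 294 of all 9117 tested, and 53 of the 73 had a log2 fold change below 0, beside 43.2% of all genes. Their median log2 fold change was -0.55, beside 0.15 over all genes, and it was -0.13 with Indirubin-1 as the only Indirubin library. For DSS over Control the median was -0.25 (71 genes) beside 0.01, or 0.47 beside 0.70 when scaled by library size alone. There 1 gene of 71 passed, beside 0.708% of all 7482 genes tested, and a single gene cannot be told from that background. The gene was Ces3b, a liver carboxylesterase, which fell from 100 ± 28.1 to 32.6 ± 4.24 CPM (log2 fold change -1.57, adjusted p = 0.0329 by edgeR, standard error 0.31). Ces3b kept its direction but missed the threshold with any 1 of the 6 libraries left out (adjusted p = 0.0764 to 0.228 by edgeR), with library size alone (0.45) and with all 9 libraries in one fit (0.622). For Indirubin over Control the median was -0.83 (72 genes) beside 0.13, or 0 beside 1.1 by library size alone, none passed, and an unadjusted p under 0.05 was found for 3 higher and 22 lower genes, beside 600 higher and 514 lower of all 8059 tested. The 3 comparisons share libraries, so their medians are not separate evidence.

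The lipoprotein lipase system, 13 genes of cofactors, anchors and proteases, had 12 tested genes with a median of -0.94 for Indirubin over DSS, and 5 of them lay lower without overlap against 1 higher, beside 5.92% lower and 10.5% higher of all 9117 genes tested. Sdc1, a proteoglycan that takes up remnant particles in liver, had 7.53 ± 4.07 CPM with indirubin and 33.5 ± 22.7 with DSS, a log2 fold change of -2.16 (standard error 0.59, adjusted p = 0.433). Apoc4, an apolipoprotein of VLDL, had 34.6 ± 7.55 and 110 ± 44.9 CPM, a value of -1.66 (0.43, adjusted p = 0.433). Furin, a protease that cleaves Lpl, lay higher without overlap, at 20.3 ± 5.66 and 11.9 ± 4.03 CPM (0.77, adjusted p = 0.754), and Pcsk5 had at most 18 counts in these 2 groups. The list's median for DSS over Control was -0.10, and its genes with the smallest p were Sdc1 (0.70, adjusted p = 0.902) and Pcsk6 (0.71, 0.984) above 0 and Pcsk5 (-2.42, 0.746) and Furin (-0.46, 0.984) below it. Apoc2, the activator of Lpl, was at 0 counts in all 9 libraries, where Apoc1 had 1135 to 6851 counts and Apoc4 222 to 1732. How reads of Apoc2 were assigned was not tested, so this 0 is not read as absence of its RNA.

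Genes of VLDL assembly and lipoprotein uptake had a median of -0.36 over 13 tested for Indirubin over DSS. Cd36, a fatty acid transporter, lay higher without overlap, at 10.4 ± 3.55 against 2.87 ± 1.72 CPM (log2 fold change 1.82, standard error 0.59, adjusted p = 0.473), with 43, 107 and 167 counts against 26, 6 and 49. Pltp, a phospholipid transfer protein, had a value of 0.56 (adjusted p = 0.946). In DSS livers against Control livers the median was -0.14, Apob, the structural protein of VLDL, was at 216 ± 30.5 against 363 ± 84.4 CPM without overlap (-0.71, adjusted p = 0.592), and Lrp1 (-0.32) and Mttp (0.23) had adjusted p of 0.995 or above.

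Intracellular lipases and cofactors had a median of -0.96 over 12 genes for Indirubin over DSS. Pnpla2, adipose triglyceride lipase, which opens the breakdown of stored triglyceride, had 14.4 ± 5.86 CPM with indirubin and 3.8 ± 1.55 with DSS (1.94, standard error 0.52, adjusted p = 0.433), while Aadac, a deacetylase of the endoplasmic reticulum, had 22.2 ± 18.7 and 94.1 ± 31.2 CPM (-2.09, standard error 0.58, adjusted p = 0.433). Pnpla2 counts were 42 in Indirubin-1 and 229 and 192 in Indirubin-2 and Indirubin-3, the libraries with pancreatic transcripts. Ces1d, a carboxylesterase, had a value of -1.57 (adjusted p = 0.639) and Lipe, hormone-sensitive lipase, 1.34 (adjusted p = 0.922), both with overlap. The median between DSS and Control was -0.29, and beside Ces3b the named genes were Ces3a (-1.0, adjusted p = 0.41) and G0s2 (0.59, adjusted p = 1).

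Lipogenic genes raised by feeding had a median of -0.72 over 15 tested genes for Indirubin over DSS and -0.49 for DSS over Control. With indirubin, Fasn, fatty acid synthase, was at 4.12 ± 3.8 against 16 ± 8.76 CPM with DSS (-2.0, standard error 0.67, adjusted p = 0.492) and lay lower without overlap. Acaca (0.03) and Acacb (1.71) lay above 0, with adjusted p of 0.867 or above. Between DSS and Control, where Angptl8 was higher, Fasn (-0.16) had an adjusted p = 1, Thrsp, a lipogenic regulator, had -0.97 (adjusted p = 0.497) and Mlxipl, a carbohydrate-responsive factor, -1.52 (adjusted p = 0.672), while Nr1h3 (0.22) and Gpam (0.26) had an adjusted p = 1.

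Genes of PPARalpha and fasting had a median of -0.23 over 19 tested genes for Indirubin over DSS, none at an unadjusted p under 0.05. Fgf21, a fasting hormone of liver, had a value of 1.82 (adjusted p = 0.901) on at most 32 counts, Pdk4 0.96 (adjusted p = 0.904) and Plin2, a lipid droplet protein, -0.99 (adjusted p = 0.761). Between DSS and Control, where Angptl4 was lower, the median was -0.30, with Slc25a20, a mitochondrial carrier, at -0.69 (adjusted p = 0.847), Plin2 at 0.41 (0.925) and Cyp4a14 at 2.00 (0.772). In Indirubin over Control the medians of the 5 lists just described were -1.23, -0.44, -1.33, -1.35 and -0.53 in the same order, and no gene passed the adjusted threshold.

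Among other angiopoietin-like genes, Angptl2 had 56, 34 and 11 counts in Control, 13, 0 and 21 with DSS and 12, 2 and 24 with indirubin. Its log2 fold change was -2.40 (standard error 0.97, adjusted p = 0.542) for DSS over Control, -2.15 (0.87, adjusted p = 0.291) for Indirubin over Control and 0.32 (1.52, adjusted p = 0.99) for Indirubin over DSS by edgeR. Angptl1 had 0 to 12 counts and was not tested, and Angptl7 had no count in any library.

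**Figure D5:**
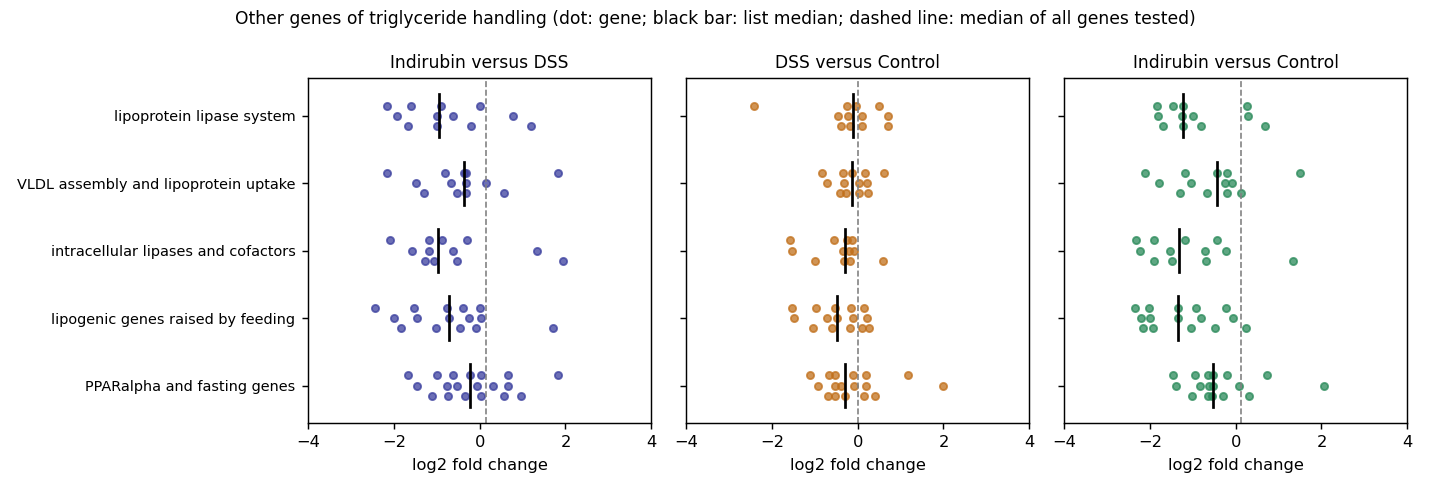
Log2 fold changes (horizontal axis) of the tested genes of 5 lists of triglyceride handling in 3 comparisons, with a dot per gene, a black bar at each list's median and a dashed line at the median of all genes tested. The list medians for Indirubin over DSS run from -0.96 to -0.23, beside 0.15 over all genes, and Ces3b for DSS over Control is the only gene that passed the adjusted threshold.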

How the data were processed

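Liver RNA of 9 mice was sequenced by the authors on a DNBSEQ instrument from 400 ng of RNA per library. The counts deposited by the authors are whole numbers per gene without normalization, on the build GRCm39 per the submitters' processing notes; the aligner, counter and annotation version are not given in the sources used here. The FPKM values deposited by the authors were not used. The deposited comparison columns (group means, log2 fold changes and p-values) and 3 deposited gene lists were not used.

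Counts were tested in R 4.3.3 with edgeR 4.0.16 (TMM, filterByExpr at its default count of 10 and total of 15, quasi-likelihood F test, Benjamini-Hochberg over the genes tested, threshold 0.05), on the 6 libraries of each comparison. The standard error is the log2 fold change divided by the square root of F. Printed CPM use TMM factors over 9 libraries (0.631 to 1.84), and levels per kb use the deposited gene length. A single count was worth 0.0819 to 0.244 CPM, and 3 counts were taken as the floor. Samples were grouped by their titles, and nothing beyond separate titles says that replicates are separate cages or days. The members and lists were chosen with earlier results of these data known. Named genes are the 6, other Angptl genes, genes overlapping a member, up to 2 tested genes with the smallest p each way per further list in 2 comparisons, and the 5 genes most correlated with Angptl8; other genes named with values, such as Fasn for DSS over Control, Apoc2 and markers, were added after their values were seen. Some genes that this rule names are not reported here. Alternatives were DESeq2 1.42.0 size factors and Wald test, library size alone, no mitochondrial genes, 2 other filters, all 9 libraries in one fit, a replicate block and each library left out. The scripts were tested on counts simulated from the Indirubin and DSS libraries, where some genes changed by a log2 of 2 or 4. There edgeR recovered 8.86% of 79 genes changed by 2 and 72.3% of 94 changed by 4, with 3 false calls of 78. DESeq2 recovered 24.1% and 86.2% of the same genes, with 43 false calls of 143. Same-numbered libraries had correlations of -0.02 to 0.03 and were taken as unpaired. Promoter motifs were counted in Python 3.11.15 with pandas 2.3.3, and figures drawn with matplotlib 3.10.9.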

Additional observations from a re-analysis of the deposited data

How the results depend on the processing

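Angptl8 kept its direction in every alternative, at -5.27 to -3.45 for Indirubin over DSS, 1.35 to 2.60 for DSS over Control and -3.32 to -0.85 for Indirubin over Control. Of 233 alternative log2 fold changes of the 5 genes, 9 changed sign. For DSS over Control these were Lpl with library size alone (0.48), without DSS-3 (0.23, range -0.41 to 0.23 over left-out libraries) and per hepatocyte marker (0.17), and Lipc with library size alone (0.74), without DSS-1 (0.32, range -0.40 to 0.32) and per hepatocyte marker (0.19). For Indirubin over Control they were Angptl4 with library size alone (0.05) and Lpl without Indirubin-2 and Indirubin-3 (-0.05), and for Indirubin over DSS Angptl4 without those libraries (-0.20). Library size alone also turned the median of the triglyceride genes to 0.47 for DSS over Control and 0 for Indirubin over Control, and it moved the median of all genes to 0.43 for Indirubin over DSS, 0.70 for DSS over Control and 1.1 for Indirubin over Control. Leaving out both libraries, scaling per hepatocyte marker and every alternative of the triglyceride median and of Ces3b were chosen after seeing the data.

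Counts of called genes moved more. For Indirubin over DSS (0 genes) they were 2 with library size alone, 156 with no filter, 2 with 10 counts in every library, 80 by DESeq2, 4 with all 9 libraries in one fit and 0 to 134 with a library left out, the highest without Indirubin-1. For DSS over Control (53) they were 19, 125, 84, 143 and 11 in the same order and 12 to 64 with a library left out, the lowest without Control-2; 5 of the 6 omissions moved the count by more than 1.5 times (24, 12 and 15 without Control-1, Control-2 and Control-3, 31 without DSS-2 and 19 without DSS-3). For Indirubin over Control (19) they were 266, 379, 72, 316 and 56 and 1 to 465, from without Control-2 to without Indirubin-1, with 3 to 7 for the other 4 omissions. With library size alone the calls were 14 higher and 5 lower for DSS over Control (16 and 37 with TMM) and 249 and 17 for Indirubin over Control (5 and 14). Causes were not tested. The replicate block gave 3, 30 and 49 calls in the same order of comparisons, the numbers not being pairs, and Ces3b missed the threshold with it (adjusted p = 0.133). With 3 libraries a group and few nuclear counts, smaller differences of Angptl6 and Lipg could not be read. In the simulated data edgeR recovered 8.86% of the genes changed by a log2 of 2. A gene that missed the adjusted threshold is thus not shown to be unchanged. Of the 143 DESeq2 calls there 43 were false, which limits the reading of genes that passed by DESeq2 alone.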
